A study of Mus musculus with 8 samples.

Results

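A set of 7 kinase genes was examined for RNA contacts of RBM45, a protein that binds RNA and is found in protein inclusions of amyotrophic lateral sclerosis. They were the 6 casein kinase 1 genes Csnk1a1, Csnk1d, Csnk1e, Csnk1g1, Csnk1g2 and Csnk1g3, and Nlk, the gene for Nemo-like kinase. These 7 were taken from 55450 annotated mouse genes. The genes were chosen by their family and by the number of peaks that recur between replicates in Csnk1g1 and Nlk, known from earlier results, so all values below are descriptions and no test was run on them. The genes held 257 of the 387749 distinct peaks of replicate 1 and 194 of the 344700 of replicate 2. They held 39 of the 16399 pairs in the authors' list of peaks that overlap between the replicates.

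The cells were mHippoE-2, a transformed mouse hippocampal neuronal line whose strain is labelled Crl:CFW(SW)-024. All carried a lentivirus that expresses mouse RBM45 tagged with FLAG and HA, so that tagged protein from a transgene was measured. In iCLIP, protein is crosslinked to RNA by UV light and pulled down, and the RNA that comes with it is sequenced; here an antibody against HA was used, and size-matched input libraries had no antibody. The 8 libraries formed 4 groups of 2, namely Mettl3 KO CLIP, Mettl3 KO input, WT CLIP and WT input; Mettl3 encodes the catalytic subunit of the m6A RNA methyltransferase. Crosslinking is stated in the knockout labels alone, as UV light given to cells at 85% confluency in 2 doses, each of 150 mJ/cm2. The peaks described here are those of the 2 WT CLIP libraries, and the Mettl3 KO and input libraries were not analysed here. The labels leave it unsaid whether the replicates are separate cultures, and the number of reads behind a peak is unknown. The labelled cell type was set against marker genes: 7 of 8 neuronal markers held peaks in both replicates, the exception being Nefl with 0 peaks in each, as did 3 of 4 astrocyte, 4 of 4 oligodendrocyte, 3 of 4 microglial and 2 of 3 endothelial markers. Over all annotated genes, of every type, 15995 of 55450 held peaks in both replicates, while the markers are all protein-coding. A peak is no measure of expression, so the marker counts neither bear out nor contradict the labelled identity.

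Casein kinase 1 enzymes are serine/threonine kinases that often act on sites primed by an earlier phosphate. The alpha form (Csnk1a1) primes β-catenin for degradation in the Wnt pathway, the delta and epsilon forms (Csnk1d, Csnk1e) phosphorylate the PERIOD proteins of the circadian clock, and the gamma forms (Csnk1g1, Csnk1g2, Csnk1g3) are held at the plasma membrane by lipid anchors and phosphorylate the Wnt co-receptor LRP6. Nemo-like kinase, related to the MAP kinases and not to casein kinase 1, phosphorylates TCF/LEF transcription factors and thereby restrains Wnt target genes.

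Short stretches covered by both replicates could be read where an annotated transcript contains them. They are shown because they are all of the shared stretches of these genes that annotated transcripts contain: 5 in 3′ UTRs and 2 in an intron that 1 transcript retains. None of the shared peaks in the long intronic clusters described below lies in such a transcript. All are written 5′ to 3′ on the RNA's own strand, from GENCODE M21 transcripts (build GRCm38/mm10), with capitals for GAC and for TTTTT, the motifs searched on the sense strand.
Csnk1g1 3′ UTR, chr9:66040894-66040923 (+): GACtcggggGACaaaattagtGACtaaaca
Csnk1e 3′ UTR, chr15:79418678-79418707 (-): ccctgagcatcctggtctcccccacacaca
Csnk1e 3′ UTR, chr15:79418471-79418500 (-): actgctGACttgtaTTTTTcagagctgcag
Csnk1e 3′ UTR, chr15:79418072-79418101 (-): ttttgtttgttttctcagtgtgtgtatttc
Csnk1e 3′ UTR, chr15:79418000-79418029 (-): taattaaagagcaaaacTTTTTattacttt
Csnk1g2 intron 2, chr10:80636369-80636394 (+): ctcaatgtgtgtatgttgaggaacaa
Csnk1g2 intron 2, chr10:80637659-80637688 (+): gtcccagggaggcatctccccatGACtgca
The Csnk1g1 stretch holds 3 GAC triplets in 30 bases. Of all 30 bp peaks that lie within 1 annotated exon, 30.7% of 36692 in replicate 1 and 31.0% of 29448 in replicate 2 held at least 1 GAC, and 0.638% and 0.601% held 3 or more. A run of 5 T was present in 5.37% and 4.98% of them, and in 2 of the 4 Csnk1e stretches. The cut of 3 GAC was taken from the Csnk1g1 stretch itself. These rates cover peaks of each replicate in any exon, shared or not. The stretches shown are shared and mostly in 3′ UTRs, so they are not fully alike. The Csnk1e stretches differ widely in base composition, with 16.7% G and C in the one nearest the transcript's end and 63.3% in the one nearest the stop codon. For Csnk1e the central 30 bases of the common stretch are shown where it is longer. The Csnk1g2 stretches are read from an annotated transcript that retains the intron. These matches describe the letters in the windows and mark no binding site.

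Csnk1g1 and Nlk stood apart from the other 5 genes in peaks found in both replicates, and less so in peaks found in either. Csnk1g1 had 18 shared peaks and Nlk had 14, against 4 in Csnk1e, 3 in Csnk1g2 and 0 in Csnk1a1, Csnk1d and Csnk1g3. A shared peak here is a replicate 2 peak of which at least 50% is covered by a replicate 1 peak. At least 1 shared peak was present in 4 of the 7 genes, beside 38.7% of the 15995 genes with peaks in both replicates. At least 5 were present in 2 of the 7, beside 5.89% of all genes, and at least 10 in the same 2, beside 1.63%. In the count of shared peaks Csnk1g1 stood at the 99.6th and Nlk at the 99.2nd percentile of those genes, whose median was 0. Both are long genes: Csnk1g1 spans 136.1 kb and Nlk 130.2 kb, at the 89.2nd and 88.5th percentiles of length, against a median of 27.9 kb. Per length the order changed: Csnk1g2 had 16.7 shared peaks per 100 kb on its 17.9 kb, above 13.2 in Csnk1g1, 10.8 in Nlk and 10.6 in Csnk1e. The 3 shared peaks of Csnk1g2 have low folds, as given below.

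**Figure D1:**
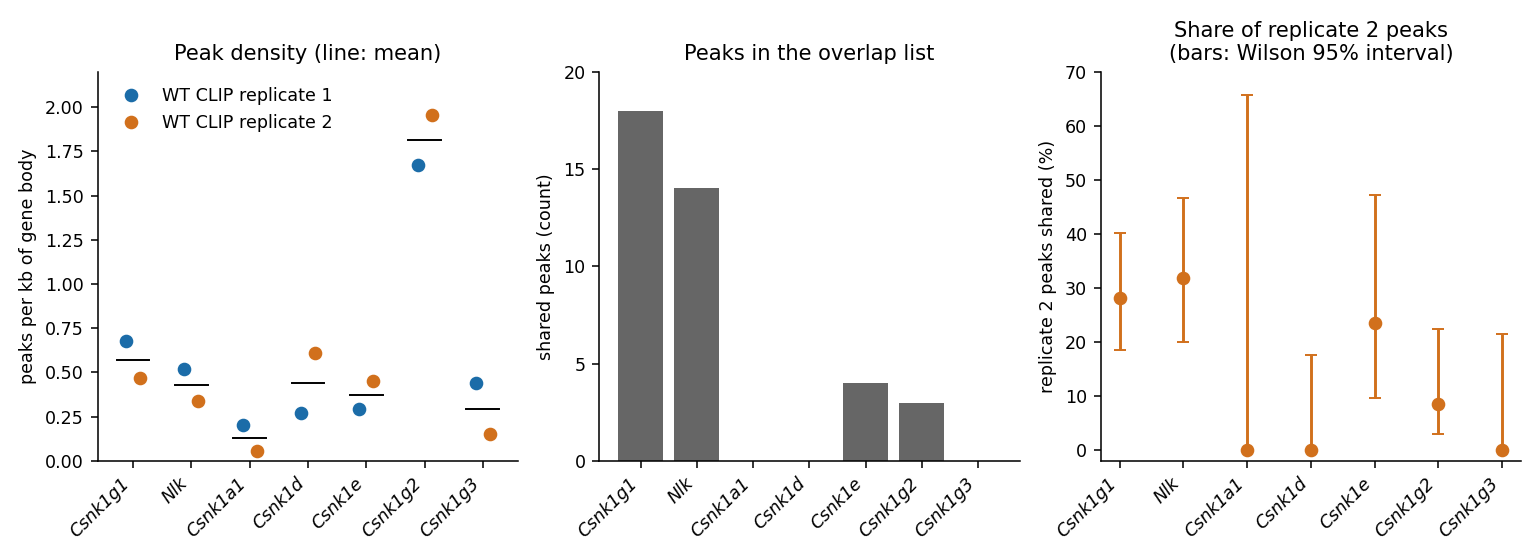
Peaks per kb of gene body in each WT CLIP replicate (left; points are replicates, the line is their mean), number of shared peaks (middle) and percent of replicate 2 peaks that are shared, with Wilson 95% intervals (right), for the 7 genes. Csnk1g1 and Nlk have 18 and 14 shared peaks, while their density lies within the range of the other 5 genes and Csnk1g2 has the highest density in both replicates.

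In peak density Csnk1g1 and Nlk lay near the middle of all genes. Csnk1g1 (chromosome 9, 65908924 to 66045015, plus strand) had 92 peaks in replicate 1 and 64 in replicate 2, which is 0.676 and 0.470 peaks per kb of gene body (mean 0.573 ± 0.145, SD, n = 2). Nlk (chromosome 11, 78567168 to 78697373, minus strand) had 68 and 44 peaks, or 0.522 and 0.338 per kb (0.430 ± 0.130, SD, n = 2). Over all genes the median was 0.466 per kb in replicate 1, with quartiles of 0.151 and 0.807, and 0.375 in replicate 2, with quartiles of 0.144 and 0.711. Both genes thus lay inside the middle range, at percentiles between 46.7 and 65.2. Taken as a pair they had 0.601 and 0.406 peaks per kb in replicates 1 and 2, against 0.455 and 0.403 in the 5 relatives. With repeated lines kept the order turned, to a mean of 0.503 in the pair against 0.682 in the relatives, where Csnk1d, Csnk1e and Csnk1g2 have such lines.

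Csnk1g2 (chromosome 10, 80622838 to 80640749, plus strand) was the densest of the 7, with 30 and 35 peaks, or 1.67 and 1.95 per kb (1.81 ± 0.197, SD, n = 2). It lay at the 98.2nd and 98.8th percentiles of all genes, and its values did not overlap those of any other of the 7. Csnk1d (chromosome 11, 120961749 to 120991330, minus strand) had 8 and 18 peaks, or 0.270 and 0.608 per kb. Csnk1e (chromosome 15, 79417856 to 79455566, minus strand) had 11 and 17 peaks, or 0.292 and 0.451 per kb.

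Csnk1g3 (chromosome 18, 53862122 to 53955548, plus strand) went the other way, with 41 peaks in replicate 1 and 14 in replicate 2, or 0.439 and 0.150 per kb. Csnk1a1 (chromosome 18, 61555274 to 61590061, plus strand) had the fewest, 7 and 2 peaks, or 0.201 and 0.0575 per kb. Below Csnk1g2 the order of mean density was Csnk1g1, Csnk1d, Nlk, Csnk1e, Csnk1g3 and Csnk1a1, and each neighbouring pair in it overlapped in replicate values. Replicate 1 had the higher density in Csnk1g1, Nlk, Csnk1g3 and Csnk1a1, and replicate 2 in Csnk1g2, Csnk1d and Csnk1e.

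The replicates met more often in Csnk1g1 and Nlk than over the whole list. In Csnk1g1 28.1% of replicate 2 peaks (18 of 64, Wilson 95% interval 18.6 to 40.1) were shared, and in Nlk 31.8% (14 of 44, interval 20 to 46.6). The share over all replicate 2 peaks was 4.76%. Csnk1e, on few peaks, came close to them with 23.5% (4 of 17, interval 9.56 to 47.3), and Csnk1g2 reached 8.57% (3 of 35, interval 2.96 to 22.4). No peak was shared in Csnk1d (0 of 18, upper bound 17.6%), Csnk1g3 (0 of 14, upper bound 21.5%) or Csnk1a1 (0 of 2, upper bound 65.8%). These intervals cover counting error over peaks only. They treat peaks as independent, which those paired with the same wide replicate 1 peak are not. Together Csnk1g1 and Nlk had 29.6% shared (32 of 108, interval 21.8 to 38.8), against 8.14% in the 5 relatives (7 of 86, interval 4.0 to 15.9). Csnk1g1 and Nlk were set apart by their shared peaks, so the distance between these intervals is no test. Requiring an overlap of 50% of both peaks left 12 shared peaks in Csnk1g1, 5 in Nlk and 4 in the 5 relatives. In Csnk1g1 and Nlk several narrow replicate 2 peaks lie inside 1 wide replicate 1 peak. As shares of replicate 2 peaks this left 18.8% in Csnk1g1, 11.4% in Nlk, 11.8% in Csnk1e and 5.71% in Csnk1g2. Shares of replicate 1 peaks had another order, with 36.4% in Csnk1e, 17.4% in Csnk1g1, 13.2% in Nlk and 10% in Csnk1g2. Over the whole replicate 1 list 16018 of 387749 peaks were shared.

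Of the replicate 2 peaks that overlapped no replicate 1 peak, 30 of 44 in Csnk1g1 and 17 of 30 in Nlk lay within 1000 bp of one, at median gaps of 367.5 and 600.0 bp. Among the relatives the numbers were 26 of 28 in Csnk1g2, 12 of 14 in Csnk1g3, 7 of 12 in Csnk1e, 7 of 17 in Csnk1d and 1 of 2 in Csnk1a1. These counts move with how densely a gene is covered by peaks, and Csnk1g2, the densest, had the shortest median gap, 173 bp. The pairs nearest below the 50% rule overlapped by 43.3% of the replicate 2 peak in the Csnk1e 3′ UTR (folds 2.60 and 4.15 in replicates 1 and 2) and by 41.1% in Csnk1g1 intron 12 (3.47 and 4.50), and the nearest above it by 50.8% in Nlk intron 3 (1.89 and 3.97) and 51.6% in the Csnk1e 3′ UTR (4.09 and 4.30). The strongest replicate 2 peak of Csnk1d (fold 4.74, intron 8, 120967776 to 120967879) overlapped a replicate 1 peak of fold 2.74 by 22.1%.

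In median fold the shared peaks of Csnk1g1, Nlk and Csnk1e lay above the upper quartile of all pairs, and those of Csnk1g2 did not. The fold is the authors' value from the peak caller for each peak over background. The lower fold of each shared pair had a median of 4.04 in Csnk1g1 (range 1.82 to 19.5, 18 pairs) and 4.20 in Nlk (range 1.89 to 8.52, 14 pairs), against 4.01 in Csnk1e (range 2.94 to 4.25, 4 pairs) and 1.89 in Csnk1g2 (range 1.83 to 2.38, 3 pairs). The medians of Csnk1g1, Nlk and Csnk1e thus lay close together, and it is the upper end of the range that differed. Over all 16399 pairs the median was 1.92, with quartiles of 1.87 and 2.76. A lower fold of 5 or more was reached by 12 of the 32 pairs in Csnk1g1 and Nlk and by 0 of the 7 in the relatives, beside 5.54% of all pairs.

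**Figure D2:**
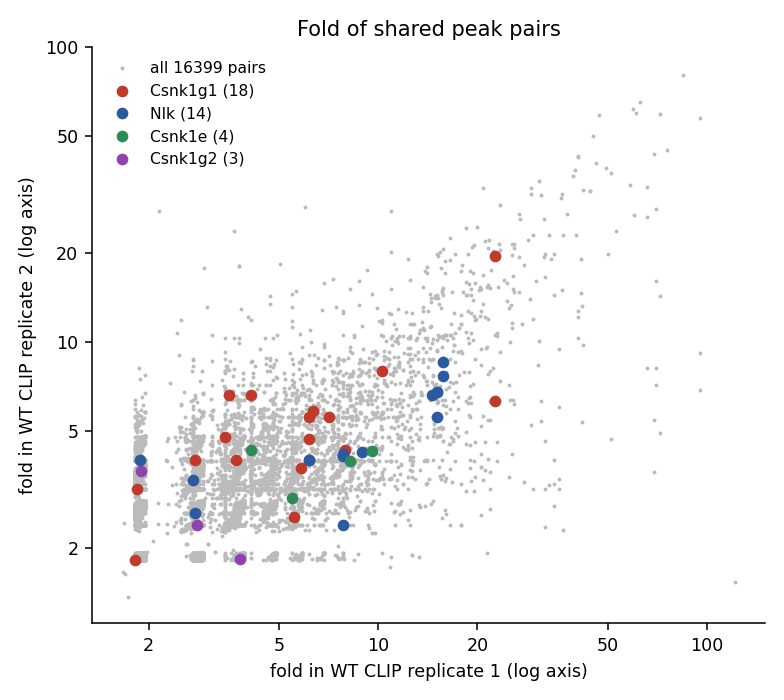
Fold of each shared pair in WT CLIP replicate 1 (horizontal, log axis) and replicate 2 (vertical, log axis), for all 16399 pairs (grey) and for the pairs of the 4 genes that have any (coloured). The strongest Csnk1g1 pair, at 22.6 and 19.5, lies far up the cloud, a group of Nlk pairs lies near 15 in replicate 1 and between 5.56 and 8.52 in replicate 2, and the Csnk1g2 pairs lie in the low corner.

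Both genes carried their single strongest shared peak in a compact intronic run. In Nlk all peaks with a fold of at least 5 stood there, and in Csnk1g1 a part of them. A run is defined here, after the values were seen, as consecutive shared peaks with gaps of at most 500 bp. Its borders are the ends of peaks. High density, high coverage and many shared peaks on a short length therefore follow from the definition. The longest run of Csnk1g1 held 8 shared peaks and that of Nlk 12. Runs of at least 5 were present in 0.669% of the 15995 genes and runs of at least 8 in 0.144%. Those of at least 12 were present in 0.0188%, which is 3 genes: Nlk, Atxn2 and Ubtd1. The cut-offs of 8 and 12 are the lengths seen in Csnk1g1 and Nlk, genes chosen for many shared peaks, so these shares are no test. A run inside overlapping genes, such as Numbl and Gm44641, counts for each of them. Because 1 wide replicate 1 peak can pair with several replicate 2 peaks, the 8 and 12 shared peaks correspond to 6 and 7 distinct replicate 1 peaks. With gaps of at most 200 bp the longest run was 6 in each of Csnk1g1 and Nlk, and all genes were not counted at that gap.

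The Csnk1g1 run lies in intron 12 of 13 (chromosome 9, 66021765 to 66023418, build mm10), a 12326 bp intron near the 3′ end of the gene. It spans 1654 bp and begins 1852 bp after the upstream exon. Peaks covered 75.9% of the span in replicate 1 and 67.3% in replicate 2. Its centre is the widest peak of the gene, 734 bp in replicate 1 (66022204 to 66022937, fold 22.6), inside which replicate 2 has a 396 bp peak of fold 19.5 and a 273 bp peak of fold 6.29. By its lower fold the pair of 22.6 and 19.5 stood at the 99.6th percentile of all pairs. The flanking pairs were weaker. In 4 of these replicate 1 had the higher fold, with 7.07 and 5.55 in replicates 1 and 2 at 66023077, 6.17 and 5.54 at 66023256, 6.17 and 3.99 at 66023370, and 6.16 and 4.69 at 66021765. In the other 2 replicate 2 was higher, with 3.51 and 6.58 at 66021972 and 3.42 and 4.74 at 66022966. Inside the run the median fold was 6.16 in replicate 1 and 5.50 in replicate 2, against 2.66 and 3.18 in the rest of the gene. Density inside was 3.63 and 6.05 peaks per kb, against 0.640 and 0.402 outside, a contrast that the definition of a run brings with it. The run holds 44.4% of the gene's shared peaks on 1.22% of its length. Of the Csnk1g1 peaks with a fold of at least 5, 4 of 11 in replicate 1 and 6 of 10 in replicate 2 fell in it.

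The Nlk run lies in intron 1 of 10 (chromosome 11, 78657700 to 78659842), deep inside a 69102 bp intron, 35966 bp after the upstream exon and 30993 bp before the downstream one. It spans 2143 bp, of which peaks covered 69.9% in replicate 1 and 47.2% in replicate 2. The strongest pair, at 78658798 to 78659081 in replicate 2, had folds of 15.7 and 8.52 in replicates 1 and 2 and stood at the 98.2nd percentile of all pairs. A further group near 78658087 to 78658321 paired 1 replicate 1 peak of fold 15.1 with replicate 2 peaks of 6.77, 5.56 and 6.76. In every pair of fold above 5 in both replicates, replicate 1 had the higher fold. Inside the run the median fold was 8.89 in replicate 1 and 4.90 in replicate 2, against 1.90 and 2.54 in the rest of the gene. All 6 replicate 1 peaks of Nlk with a fold of at least 5 and all 6 of replicate 2 fell in the run. It takes up 1.65% of the gene. The highest Nlk folds outside the run were just under that line, at 4.79 in replicate 1 and 4.76 in replicate 2. Outside it 2 shared peaks of Nlk remained, both in intron 3, with folds of 1.89 and 3.97 and of 2.77 and 2.62, the weaker one 122 bases before the 3′ splice site.

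**Figure D3:**
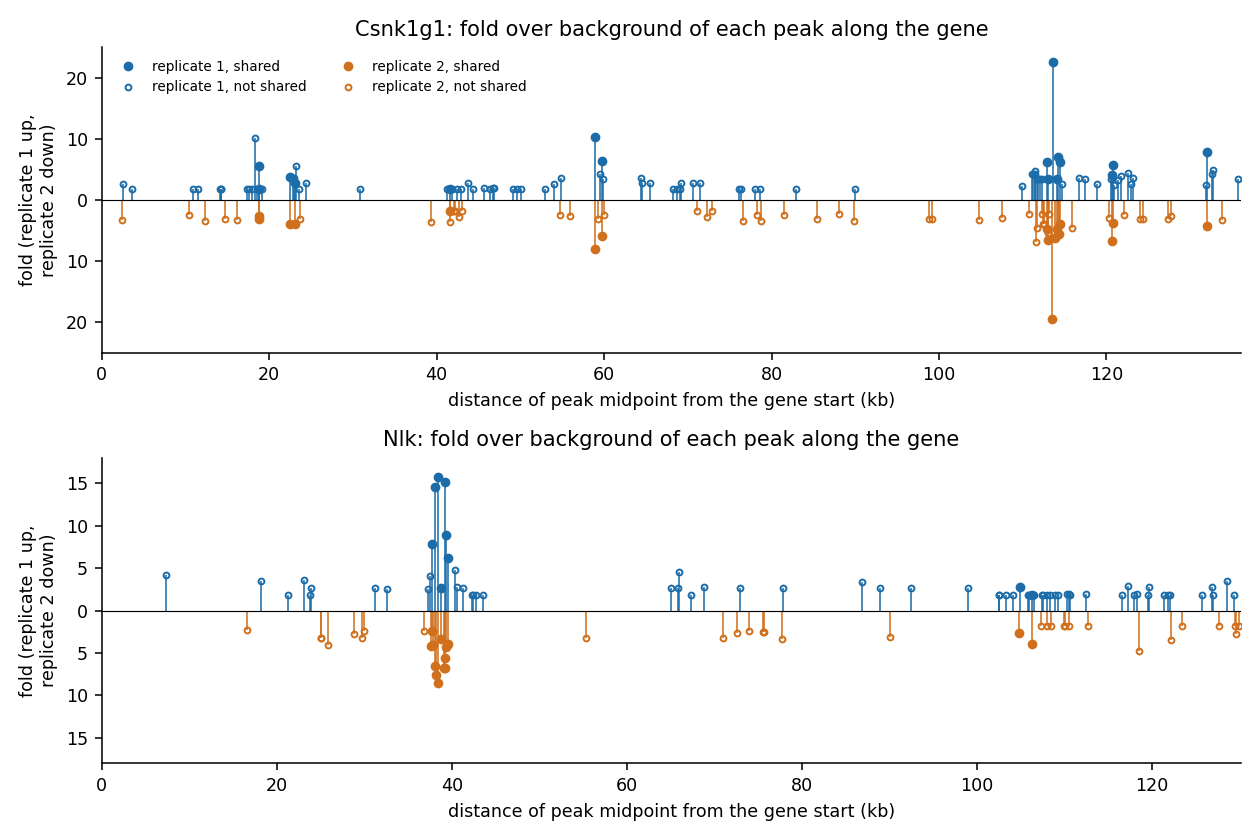
Fold of every peak of Csnk1g1 (top) and Nlk (bottom) by distance of its midpoint from the gene start in kb; replicate 1 points up and replicate 2 down, filled circles are shared peaks and open circles are not. In Nlk every peak with a fold of at least 5 stands in a single column in intron 1, while Csnk1g1 has its tallest column in intron 12 and lower filled peaks along the rest of the gene.

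Csnk1g1, unlike Nlk, kept 10 shared peaks outside its run. In intron 3 a pair at 65967829 to 65967941 had folds of 10.3 and 7.94 in replicates 1 and 2, the highest of the gene outside intron 12, and a neighbour at 65968696 had 6.32 and 5.82. Intron 1, the longest at 40.8 kb, held 4 shared peaks, with lower folds of at most 3.70. In intron 12, downstream of the run, 2 further pairs at 66029611 and 66029709 had 4.10 and 6.63, and 5.79 and 3.72. The weakest pair, at 65950519 in intron 2, had 1.82 in each replicate. Intron 12 was the densest large intron, with 27 and 20 peaks, or 2.19 and 1.62 per kb, against 0.563 and 0.269 per kb in intron 1. Some strong Csnk1g1 peaks appeared in 1 replicate only. A replicate 1 peak in intron 1 (65927114 to 65927305) had a fold of 10.1 and no partner. A replicate 2 peak in intron 12 (66020443 to 66020520) had 6.95 and overlapped a replicate 1 peak by 23 bp, under the 50% rule.

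**Figure D4:**
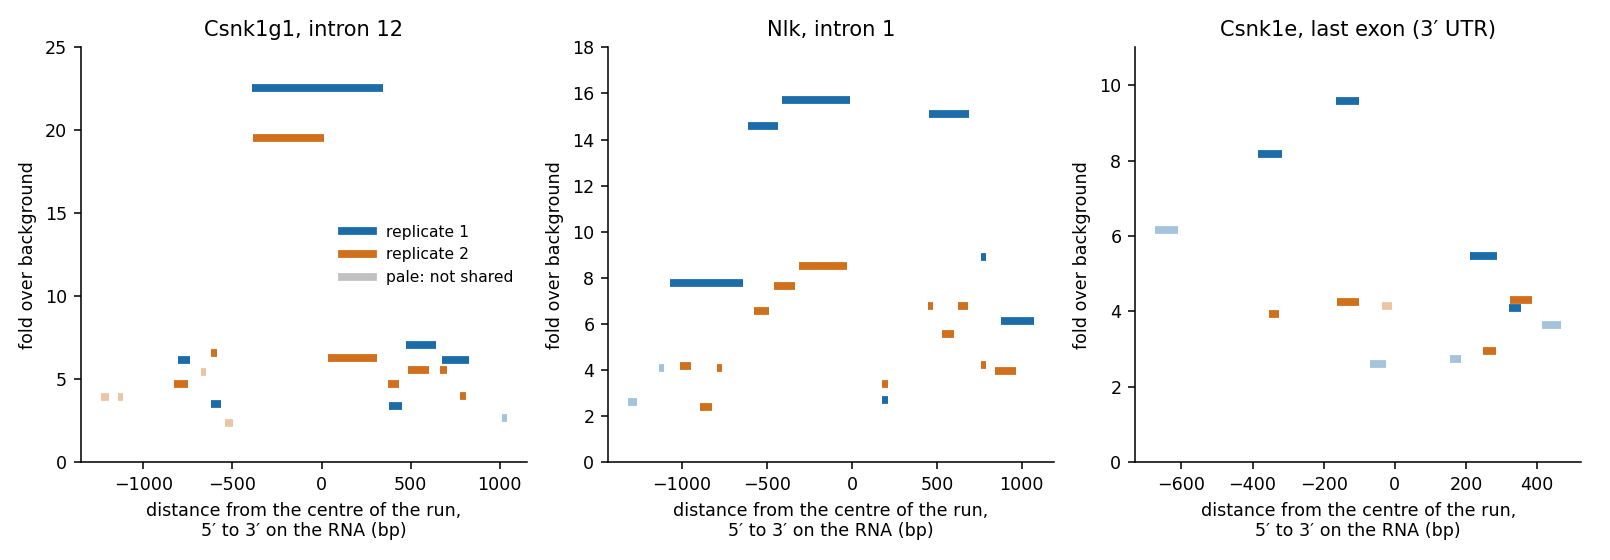
Position and fold of peaks in the longest runs of Csnk1g1 (intron 12), Nlk (intron 1) and Csnk1e (3′ UTR), by distance in bp from the centre of the run, 5′ to 3′ on the RNA; each bar spans 1 peak, blue is replicate 1, orange is replicate 2, and pale bars are not shared. The central Csnk1g1 peaks reach folds of 22.6 and 19.5, those of Nlk 15.7 and 8.52, and the Csnk1e peaks stay at 9.58 or below.

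In intron position Csnk1g1 and Nlk were close to Csnk1g2 and Csnk1g3, and Csnk1e had the lowest share. In Csnk1g1 92.9% of peaks lay in introns (145 of 156 over both replicates, interval 87.8 to 96.0), and in Nlk 92.9% (104 of 112, interval 86.5 to 96.3). Introns make up 94.3% of the body of Csnk1g1 and 96.6% of that of Nlk, so the peak shares were close to the shares of sequence. Among the relatives Csnk1g2 had 95.4% of peaks in introns (interval 87.3 to 98.4) on a body that is 86.5% intron, and Csnk1g3 89.1% (interval 78.2 to 94.9) on 95.3%. Csnk1d had 73.1% (interval 53.9 to 86.3) on 87.4%, and Csnk1a1 66.7% (interval 35.4 to 87.9) on 81.6%. Csnk1e was lowest with 32.1% (interval 17.9 to 50.7) on 86.8%. Counting the introns of its longer transcript alone, the Csnk1e share was 53.6%, still the lowest of the 7. These shares pool both replicates, and the intervals leave out the difference between them. By replicate, Csnk1g3 had 97.6% in replicate 1 and 64.3% in replicate 2, and Csnk1a1 57.1% and 100%. The other genes stayed inside their intervals in each replicate. In the comprehensive transcript set Csnk1g2 fell to 67.7%, outside its interval, and the other genes stayed inside theirs. Of the shared peaks, 31 of 32 in Csnk1g1 and Nlk were intronic, against 3 of 7 in the relatives, all 3 in Csnk1g2.

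**Figure D5:**
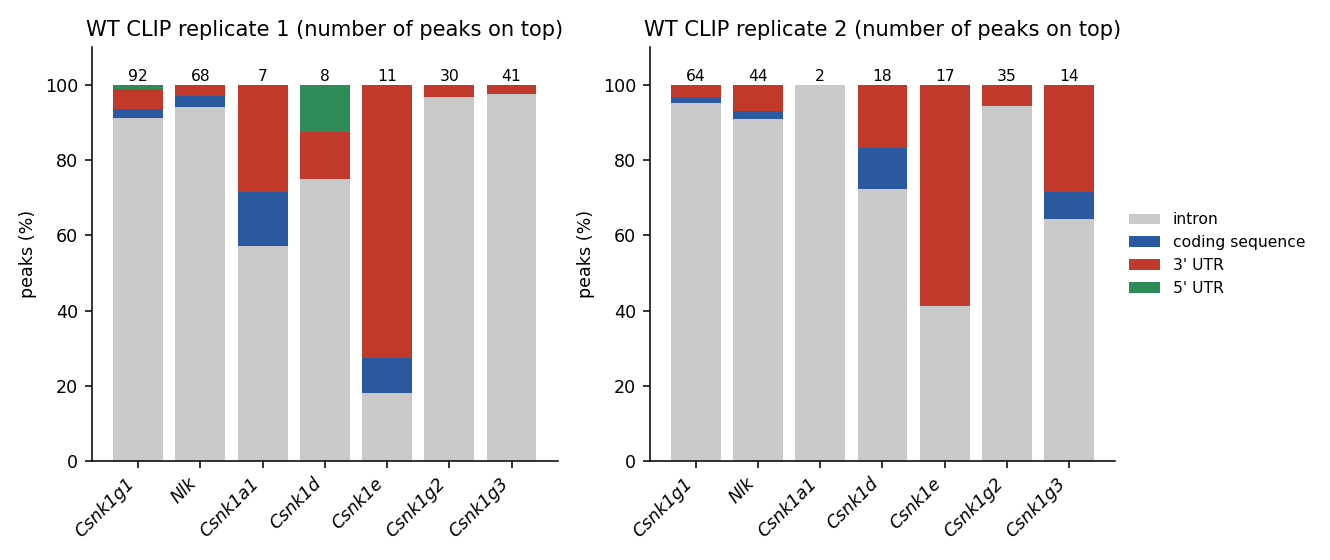
Percent of peaks of each gene in introns (grey), coding sequence (blue), 3′ UTR (red) and 5′ UTR (green), in WT CLIP replicate 1 (left) and replicate 2 (right), with the number of peaks above each bar. Grey takes up nearly all of the Csnk1g1 and Nlk bars, and the red part is largest in Csnk1e, at 8 of 11 peaks in replicate 1 and 10 of 17 in replicate 2, of which 5 lie in the end of a shorter transcript.

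Csnk1e carried many of its peaks in 3′ UTRs, with 8 of 11 in replicate 1 and 10 of 17 in replicate 2. All 8 of replicate 1 lie in the last exon, whereas of the 10 of replicate 2, 5 lie in the last exon and 5 (79422801 to 79423460) in the end of a shorter annotated transcript, within intron 7 of the longer one. All 4 of its shared peaks fell within 769 bp of the last exon, 530, 737, 1135 and 1223 bases after the end of the coding sequence. Their sequences are those printed above. The folds in replicates 1 and 2 were 8.17 and 3.94 for the one nearest the stop codon, 9.58 and 4.25 for the next, 5.47 and 2.94 for the third, and 4.09 and 4.30 for the one farthest downstream. Replicate 1 was higher in the first 3 and replicate 2 slightly higher in the last. A run of at least 4 shared peaks, the length seen here, was present in 1.24% of all genes. The strongest replicate 2 peak of the gene (79423179 to 79423221, fold 7.15) had no partner and is among the 5 in the shorter transcript's end.

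The single exonic shared peak of Csnk1g1 lies in the 3′ UTR, 1280 bases after the end of the coding sequence. It is the stretch with 3 GAC triplets, and its folds were 7.92 in replicate 1, on a peak of 164 bp, and 4.30 in replicate 2, on a peak of 30 bp. Replicate 1 had 5 peaks in the 3′ UTR of Csnk1g1 and replicate 2 had 2. Nlk had 2 and 3 there, none shared.

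Csnk1g2, dense in peaks, held no peak of fold 5 or more, and neither did Csnk1d and Csnk1g3. The highest fold of Csnk1g2 was 3.80 in replicate 1 and 3.68 in replicate 2. Its median folds were 1.92 and 2.38, beside 1.93 and 1.92 over all peaks of replicates 1 and 2. The highest folds of the other relatives were 9.58 and 7.15 in Csnk1e, 5.10 and 3.93 in Csnk1a1, 3.53 and 4.74 in Csnk1d, and 3.71 and 4.93 in Csnk1g3. Its 3 shared pairs had folds of 2.81 and 2.38 in intron 1, and of 1.89 and 3.63 and of 3.80 and 1.83 in intron 2. With peaks limited to a −log10 p of at least 3, none of the 3 remained. Its intron 2 had 11 and 9 peaks on 3.25 kb, or 3.39 and 2.77 per kb, and its intron 1 had 18 and 21 peaks on 11.3 kb, or 1.6 and 1.86 per kb.

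Csnk1g3, the third gamma gene, is 93.4 kb long and thus nearest in length to Csnk1g1 and Nlk, but had no shared peak. Its peak of fold 4.93, in replicate 2, lies in the 3′ UTR (53953491 to 53953526). Csnk1a1 had its strongest peak, of fold 5.10 in replicate 1, in the 3′ UTR (61587766 to 61587807), with no partner in replicate 2. Among the gamma genes, then, 18 shared peaks in Csnk1g1 stood against 3 in Csnk1g2 and 0 in Csnk1g3.

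Lists of other kinases, and of genes in pathways where these kinases act, were counted in the same way. Of the other casein kinase 1 superfamily genes 3 of 5 had a shared peak (Ttbk2 with 2, Vrk1 and Vrk2 with 1 each), and of 3 casein kinase 2 genes, which encode an unrelated kinase, 0. Among MAP kinases 7 of the 11 with peaks in both replicates did, led by Mapk6 with 7, an atypical MAP kinase, and then Mapk14 and Mapk4 with 2 each. Of the Wnt pathway list 16 of 31 had at least 1, with 9 in Ror2, a receptor for Wnt5a, 9 in Tcf7l2, a TCF/LEF factor, and 7 in Porcn, the enzyme that attaches lipid to Wnt proteins. Of the clock genes 9 of 20 did, with 10 in Rora, 8 in Per2, a substrate of the delta and epsilon kinases, and 3 in Arntl. Of 12 partners and substrates of Nemo-like kinase 7 did, with 8 in Rptor, the mTORC1 scaffold, 3 in Foxo1 and 2 in Hipk2. The share over all genes was 38.7%. The median number of shared peaks was 1 in the lists of other casein kinase 1, MAP kinase, Wnt and Nlk partner genes. It was 0 in the clock and casein kinase 2 lists, against 0 over all genes. The lists hold protein-coding genes only, whereas the values over all genes include every gene type, so the 2 are not fully alike.

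The genes most like Csnk1g1 in shared peaks per 100 kb and in the median lower fold of those peaks, among 927 protein-coding genes with at least 5 shared peaks, were Dap, Anxa3 and Myh9, with 7, 7 and 10 shared peaks. For Nlk they were Gm20716, Baz1b and Myh9, with 5, 6 and 10. Distances, as log2 differences over both measures, were 0.09 to 0.14 for Csnk1g1 and 0.09 to 0.19 for Nlk. The likeness is one of numbers over 2 libraries.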

How the data were processed

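Peak lists of RBM45 iCLIP in WT mHippoE-2 cells were used, 1 per replicate, with the authors' list of peaks that overlap between replicates. The submitters' processing notes name MACS2 2.1.1.20160309, Novoalign 3.09.00, HOMER 4.11.1, deepTools 3.2.1 and bedtools 2.25.0, with mm10; the peak names carry a p threshold of 0.005. Each peak carries the authors' deposited score, fold (a ratio over background) and −log10 p, of which the least was 2.31 and 2.30. Not given in the sources used here are the background of the peak caller, the origin of each peak's strand and the treatment of reads that map to several places. Reads from paralogous stretches could therefore fall on either copy.

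Repeated lines were removed (267229 of 654978 and 237090 of 581790). Peaks were placed by their midpoint in same-strand gene bodies of GENCODE M21. None of the members' intervals is also listed on the other strand. Regions are from the basic transcript set. The members, gene lists and measures were chosen with earlier results of these data known. All 7 members are named. Peaks named are the shared ones, up to 10 a gene by lower fold, and the strongest of each replicate; other peaks named were picked after their values were seen. In each gene list the 3 genes with most shared peaks are named.

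A deposited count table has 16 per-sample columns, its summary included, whose names match no label. They were not used, so the planned test of Mettl3 KO against WT CLIP was not run. Counting and placement were tested on simulated data. Computation used pandas 2.3.3, numpy 2.4.6, scipy 1.17.1 and matplotlib 3.10.9 under Python 3.11.15. Alternatives for peak strength, overlap, transcript set, strand, repeated lines, runs and reference introns were tried, with those on runs and reference introns added after the data were seen.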

Additional observations from a re-analysis of the deposited data

How the results depend on the processing

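No paired analysis was possible because the replicate numbers tie each CLIP library to its own input, and the count columns that would hold both match no label, so no groups could be compared. Of the alternatives for the main counts and shares, 36 stayed close to the value given and 18 moved. Csnk1g1 and Nlk together had more shared peaks than the 5 relatives together in each alternative run on both. They were set apart by their shared peaks, and the alternatives filter the same peaks, so this order is no independent support. Leaving out either replicate gave 0.406 to 0.601 peaks per kb in Csnk1g1 and Nlk against 0.403 to 0.455 in the relatives. The shares of peaks in introns were then 92.5% to 93.5% against 74.4% to 83.5%. The relatives were not alike in this: over both replicates Csnk1g2 and Csnk1g3 together had 92.5% and Csnk1e 32.1%. At a −log10 p of at least 3 the densities over both replicates were 0.293 in Csnk1g1 and Nlk against 0.246 per kb in the relatives, and at 5 they were 0.131 against 0.0703, beside 0.503 and 0.429 with all peaks. With repeated lines kept, Csnk1g1 and Nlk stayed at 0.503 and the relatives had 0.682 per kb, which turns the order. Shared peaks were 21 against 2 at a −log10 p of at least 5, and the relatives had 4 at 3, 13 at an overlap of 1 bp, and 13 with repeated lines kept. An overlap of 50% of both peaks left 17 against 4, with 15.7% of replicate 2 peaks shared in Csnk1g1 and Nlk, and at least 1 shared peak in 36.1% of all genes. Outside each gene's longest run 12 shared peaks were left in Csnk1g1 and Nlk against 2 in the relatives, with 10 in Csnk1g1 but 2 in Nlk, level with Csnk1g2. The Nlk run fell to 6 shared peaks with gaps of at most 200 bp. In the comprehensive transcript set 67.2% of the relatives' peaks were intronic. Depth is unknown, which limits every count of peaks found in 1 replicate.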
